A study of Rattus norvegicus with 31 samples.

Results

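The cell cycle genes described here are the G1 cyclins, their kinases, the inhibitor p27 and a pair of E2F factors. They were chosen by symbol: of 10 names (Ccnd1, Ccnd2, Ccnd3, Ccne1, Ccne2, Cdk2, Cdk4, Cdkn1b, E2f1 and E2f8), 9 have a row in both deposited tables, and Ccnd2 was not analysed here. The count table holds 26312 genes, and all 9 were among the 19904 that passed the filter on low counts and were tested. The samples were livers of 31 young adult female Wistar rats (Crl:WI), dosed daily by oral gavage for 28 days. The 8 control rats received the vehicle, 0.5% aqueous carboxymethyl-cellulose, in which the compounds were also suspended. Thiacloprid (THI) and clothianidin (CTD) are neonicotinoid insecticides, and imazalil (IMZ) is an azole fungicide. Among the rats on 1 compound, 4 received THI at 108, 4 received IMZ at 93 and 3 received CTD at 288 mg/kg bw/day. In the CTD dose group at least 1 rat was killed when moribund. The paper lists 3 rats for this group and 4 for each treatment group without such a loss. Whether a moribund rat's liver is among the 3 sequenced is not stated outright in the sources used here. Each mixture went to 4 rats and is named by its compounds. The doses, in the order of the names, were 54 with 46 (THI + IMZ), 54 with 134 (THI + CTD) and 46 with 135 mg/kg bw/day (IMZ + CTD).

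In a quiescent cell such as most hepatocytes of an adult liver, E2F factors are held silent by the retinoblastoma protein and its relatives, the pocket proteins. D-type cyclins with CDK4, then E-type cyclins with CDK2, phosphorylate the pocket proteins and release E2F, which switches on the genes of DNA synthesis and of cyclin E itself, while p27 restrains these kinases. Liver is known for its capacity to re-enter this cycle after loss of tissue or under mitogenic chemicals.

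In these livers, transcripts of cyclin D1, both E cyclins, E2f1 and E2f8 were higher with CTD and with THI + CTD, while those of cyclin D3, the kinases and p27 had log2 fold changes between -0.22 and 0.50 in these groups. With CTD, 5 of the 9 genes rose (Ccnd1, Ccne1, Ccne2, E2f1 and E2f8) and 1 fell (Cdk4) at an adjusted p under 0.05, beside 12.7% of all genes tested (6.62% higher and 6.03% lower). With THI + CTD, 6 of the 9 rose (Ccnd1, Ccnd3, Ccne1, Ccne2, E2f1 and E2f8), beside 4.39% of all genes (2.67% higher). With IMZ + CTD, E2f1 alone passed the test, 1 of 9 beside 1.46% of all genes (1% higher). None of the 9 passed with THI (0.543% of all genes), IMZ (0.251%) or THI + IMZ (1.18%). Before adjustment, 1, 4 and 4 of the 9 had a p under 0.05 in these last comparisons, beside 1728, 1608 and 2202 of the 19904 genes. The DESeq2 Wald test also called 0 of the 9 in each of them. The median log2 fold change over the 9 genes was 1.03 with CTD, 0.88 with THI + CTD, 0.22 with IMZ + CTD, 0.24 with THI + IMZ, 0.32 with IMZ and -0.10 with THI, beside medians over all genes between -0.07 and -0.01. The 6 comparisons share their 8 controls. Adjusted p-values are from edgeR's quasi-likelihood test with Benjamini-Hochberg adjustment over the 19904 genes, and every value is in a library of whole liver, where fewer cells of a type and less RNA per cell cannot be told apart.

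Depth differed between groups: the medians were 60.5 M counts (controls) and 40.2 M (treated rats), the range over all libraries was 31.8 to 101 M, and the CTD libraries held 31.8 to 38.4 M. Levels are given as CPM, the counts per M counts of the library after TMM scaling, which compare a gene between livers but not genes with each other. Hepatocyte markers (Alb, Ttr, Apoa1, Tat, Serpina1 and Cyp2e1) summed to between 120000 and 203000 CPM in all 31 livers. Alb, with 13.7% of the counts on average, made up most of this sum. Among these markers Tat fell with CTD (by 0.93, SE 0.25) and THI + CTD (by 0.96, SE 0.22), Serpina1 fell with THI + CTD (by 0.43, SE 0.08) and Apoa1 rose with THI + IMZ (0.85 ± 0.18). CTD replicate 1 had the highest level of Ccnd1, Ccne1, Ccne2, Cdk2, Cdkn1b, E2f1 and E2f8 among all 31 livers, so values without this rat are given beside the CTD results of these genes. The values of single marker genes and of other pathway genes include this rat.

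Ccnd1 (ENSRNOG00000020918) encodes cyclin D1, which links growth signals to CDK4. In the controls its level ran from 16.5 to 24.9 CPM with a median of 19.7 CPM. It was 51.4, 45.7 and 26.8 CPM in the 3 CTD livers and 28.2, 36.4, 45.5 and 38.7 CPM in the 4 THI + CTD livers. Each of these 7 livers lay above the highest control. This gave a log2 fold change of 1.03 ± 0.19 (SE, adjusted p = 0.000364) with CTD, a fold of 2.05, and 0.88 ± 0.18 (adjusted p = 0.00292) with THI + CTD, a fold of 1.84. Without CTD replicate 1 the CTD value was 0.85 (adjusted p = 0.016). The other treatments stayed nearer to control, with 13.6 to 23.7 CPM for THI, 21.8 to 27.2 CPM for THI + IMZ and 17.9 to 27.6 CPM for IMZ + CTD. With IMZ, replicate 1 had 46.5 CPM and the other livers 22, 22.6 and 23.3 CPM. The IMZ log2 fold change of 0.50 ± 0.18 (adjusted p = 0.365) was 0.17 without replicate 1.

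Ccnd3 (ENSRNOG00000050258) encodes cyclin D3, another partner of CDK4. Its control level was 16.4 to 24.6 CPM with a median of 19.8 CPM, and the group means of the 6 treatments lay between 20.1 and 25.4 CPM. In THI + CTD it was 23.3, 24.5, 28 and 25.6 CPM, overlapping the controls. The log2 fold change there, 0.36 ± 0.11, passed at an adjusted p of 0.0496, and the adjusted p rose above the threshold, to as much as 0.202, in 11 of the 12 fits that left out 1 rat. In CTD the 3 livers spread on both sides of the controls, at 22.3, 26.6 and 15.8 CPM (log2 fold change 0.12, 95% interval -0.12 to 0.37).

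**Figure D1:**
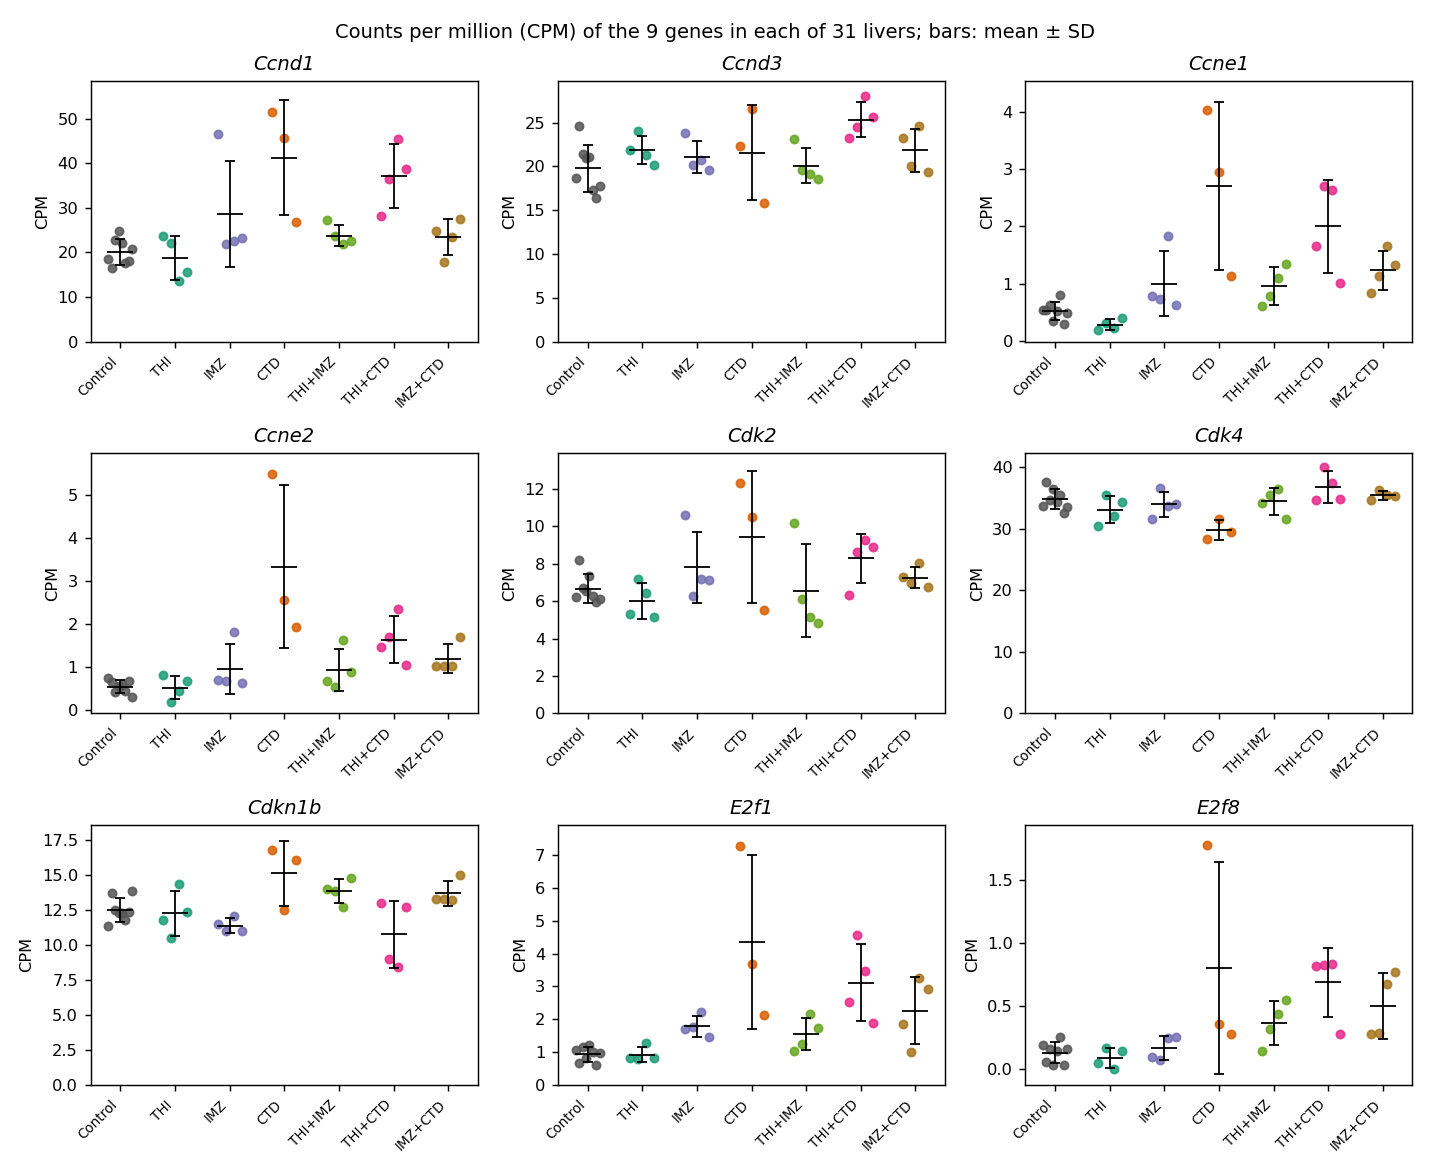
Levels of the 9 genes in CPM (vertical axes, each from about 0 on its own scale) in the 31 livers, by treatment group (horizontal axes); each point is 1 rat, and the bars give the group mean ± SD. Ccnd1, Ccne1, Ccne2, E2f1 and, by a small margin, E2f8 stand above all 8 controls in every CTD and THI + CTD liver. How many of all genes do so was not counted. CTD replicate 1 (the leftmost CTD point) is the highest of all livers for Ccne2, E2f1 and E2f8, and Cdk4 keeps a narrow range (28.3 to 40.1 CPM).

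Ccne1 (ENSRNOG00000014786) and Ccne2 (ENSRNOG00000008055) encode cyclins E1 and E2, the activators of CDK2 at the G1/S transition and themselves transcribed under E2F. For Ccne1 the controls ran from 0.293 to 0.802 CPM, with a median of 0.527 CPM (16 to 55 counts). The CTD livers had 4.03, 2.95 and 1.14 CPM (37 to 155 counts), and the THI + CTD livers 1.66, 2.7, 2.64 and 1.01 CPM. The IMZ + CTD livers had 0.83, 1.14, 1.65 and 1.32 CPM. All livers that received CTD, alone or in a mixture, were above the highest control, and the 3 CTD livers differed from each other more than the controls did. The log2 fold change was 2.37 ± 0.33 with CTD (5.19-fold, adjusted p = 1.03e-05), 1.94 ± 0.32 with THI + CTD (3.84-fold, adjusted p = 0.000302) and 1.24 ± 0.33 with IMZ + CTD (2.36-fold, adjusted p = 0.0502). That last value is just above the threshold. It passed with DESeq2 size factors (adjusted p = 0.0484), the DESeq2 Wald test (0.0156) and the stricter edgeR filter filterByExpr (0.0388). It also passed on counts thinned to the smallest library (0.0462) and with only the groups compared fitted (0.0234). The same held without control replicate 6 (0.0361) or IMZ + CTD replicate 1 (0.0326). It moved further from the threshold with the replicate block (0.224), with no filter on low counts and without any of the other 10 rats, most of all IMZ + CTD replicate 3 (1.06, adjusted p = 0.234). THI was the only treatment with a Ccne1 mean below control, at 0.189, 0.319, 0.221 and 0.405 CPM (log2 fold change -0.86 ± 0.39, adjusted p = 0.522). With IMZ the livers had 0.791, 0.736, 1.84 and 0.627 CPM and with THI + IMZ 0.609, 0.779, 1.09 and 1.35 CPM, both overlapping the controls.

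Ccne2 was 0.299 to 0.752 CPM in the controls with a median of 0.564 CPM (11 to 78 counts). It reached 5.49, 2.56 and 1.94 CPM with CTD, 1.47, 1.69, 2.36 and 1.04 CPM with THI + CTD and 1.02, 1.02, 1.03 and 1.7 CPM with IMZ + CTD, again all above the controls. On the log2 scale the change was 2.59 ± 0.35 (6-fold, adjusted p = 5.88e-06) with CTD and 1.57 ± 0.34 (2.96-fold, adjusted p = 0.00483) with THI + CTD. With IMZ + CTD it was 1.10 ± 0.35 (adjusted p = 0.12), which did not pass, except with only the groups compared fitted (adjusted p = 0.0386). Without CTD replicate 1, the CTD value was 2.02 for Ccne2 and 1.97 for Ccne1, both with an adjusted p of 0.00123. Levels with THI (0.188 to 0.808 CPM), IMZ (0.627 to 1.82 CPM) and THI + IMZ (0.537 to 1.63 CPM) overlapped the controls.

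Cdk4 (ENSRNOG00000025602), the kinase of the D cyclins, had a narrow range, 32.6 to 37.6 CPM in the controls, with a median of 34.5 CPM. With CTD it was 28.3, 31.5 and 29.5 CPM, below every control, and fell by 0.22 on the log2 scale (SE 0.07, 0.856-fold, adjusted p = 0.0251). The adjusted p was 0.156 without CTD replicate 1 and 0.0732 without CTD replicate 3, and 0.0626 when only the CTD and control rats were fitted. With THI + CTD the level was 34.6 to 40.1 CPM, with a log2 fold change of 0.08 ± 0.06 (adjusted p = 0.517). The 95% intervals of the treatments other than CTD alone all lay between -0.19 and 0.20.

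Cdk2 (ENSRNOG00000006469), the kinase of the E cyclins, was 5.94 to 8.2 CPM in the controls with a median of 6.4 CPM. The CTD livers had 12.3, 10.5 and 5.51 CPM, so that 2 stood above and 1 below all controls. The log2 fold change of 0.50 ± 0.19 did not pass (adjusted p = 0.0859). It was 0.26 (adjusted p = 0.536) without CTD replicate 1, the highest liver, and 0.77 (adjusted p = 0.00696) without CTD replicate 3, the lowest. In THI + CTD it was 6.34, 8.65, 9.26 and 8.91 CPM, a log2 fold change of 0.32 ± 0.17 (adjusted p = 0.359). Single high livers occurred with IMZ (10.6 CPM in replicate 1) and THI + IMZ (10.2 CPM in replicate 1).

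Cdkn1b (ENSRNOG00000007249) encodes p27, the inhibitor of the cyclin E and CDK2 complex. Its controls ran from 11.4 to 13.9 CPM with a median of 12.4 CPM. The CTD livers had 16.8, 12.5 and 16.1 CPM and the THI + CTD livers 13, 8.99, 8.45 and 12.7 CPM, the 2 groups at opposite ends of the order of means. The log2 fold change was 0.27 ± 0.11 (adjusted p = 0.117) with CTD and -0.22 ± 0.10 (adjusted p = 0.254) with THI + CTD, and none of the 6 treatments passed. The CTD value was 0.18 (adjusted p = 0.446) without CTD replicate 1, the highest liver, and 0.39 (adjusted p = 0.0402) without CTD replicate 2, the lowest.

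Promoter sequences of Ccne1, which rose with CTD, and Cdk4, which fell, are shown as the regulatory DNA of the members whose CTD calls went in opposite directions. They are the 250 bases before the gene start in the RefSeq table for GRCr8, a later build than the Rnor_5.0 of the counts, and 5 of the 10 names had an entry (Ccnd3, Ccne1, Cdk2, Cdk4 and Cdkn1b). Capitals mark GGGCGG, the GC box bound by Sp1-type factors, on either strand (CCGCCC on the other). The Ccne1 window lies at chr1:99927910-99928159 on the minus strand and the Cdk4 window at chr7:64771203-64771452 on the plus strand.
Ccne1: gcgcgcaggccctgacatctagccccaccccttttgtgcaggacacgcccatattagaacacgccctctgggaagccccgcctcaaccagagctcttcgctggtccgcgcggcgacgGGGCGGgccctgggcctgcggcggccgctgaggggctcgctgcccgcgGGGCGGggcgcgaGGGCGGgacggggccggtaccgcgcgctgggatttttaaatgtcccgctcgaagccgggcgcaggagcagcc
Cdk4: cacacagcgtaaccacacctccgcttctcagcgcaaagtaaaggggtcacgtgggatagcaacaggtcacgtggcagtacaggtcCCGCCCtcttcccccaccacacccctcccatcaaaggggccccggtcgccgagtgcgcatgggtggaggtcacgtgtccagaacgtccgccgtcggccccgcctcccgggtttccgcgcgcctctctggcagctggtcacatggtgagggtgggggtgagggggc
The Ccne1 window holds 3 GC boxes, the nearest ending 67 bases before the start, and the Cdk4 window 1. The windows of Cdk2, Ccnd3 and Cdkn1b, which were not called with CTD, hold 4, 2 and 1. Each of the 5 windows holds at least 1, as do 30.5% of the 33469 promoters in the table. This motif was searched after the values had been seen. The motifs chosen earlier, TTTNNCGC for E2F and TTTGAA for the cell cycle homology region (both strands, sharing the letters TTT), occur in 4.11% and 16.2% of all promoters and in none of the 5 windows, which says only that these letters are not in these 250 bases.

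E2f1 (ENSRNOG00000016708) encodes an activator of the E2F family. The controls ran from 0.605 to 1.21 CPM with a median of 0.995 CPM (22 to 110 counts). The CTD livers had 7.28, 3.67 and 2.12 CPM, the THI + CTD livers 2.53, 4.57, 3.47 and 1.9 CPM and the IMZ + CTD livers 1.85, 1.02, 3.26 and 2.92 CPM. All CTD and THI + CTD livers and 3 of the 4 IMZ + CTD livers lay above the highest control. E2f1 rose by a log2 fold change of 2.21 ± 0.29 with CTD (4.61-fold, adjusted p = 4.88e-06), 1.72 ± 0.28 with THI + CTD (3.3-fold, adjusted p = 0.000278) and 1.26 ± 0.29 with IMZ + CTD (2.39-fold, adjusted p = 0.0166). Without CTD replicate 1 the CTD value was 1.62, with an adjusted p of 0.00144. The IMZ + CTD call was lost without IMZ + CTD replicate 3 (1.02, adjusted p = 0.156) or replicate 4 (1.10, adjusted p = 0.102). With IMZ alone, all 4 livers (1.7, 1.77, 2.23 and 1.47 CPM) were above the highest control too, but the log2 fold change of 0.92 ± 0.29 did not pass (adjusted p = 0.251). The THI + IMZ livers had 1.05 to 2.15 CPM and the THI livers 0.788 to 1.27 CPM.

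E2f8 (ENSRNOG00000022537) encodes an atypical E2F that represses E2F target genes and is known in liver for its part in hepatocyte polyploidy. It was the least abundant of the 9 genes in counts, with 2 to 20 counts in the control libraries. Controls ran from 0.0308 to 0.257 CPM with a median of 0.155 CPM. The CTD livers had 1.77, 0.362 and 0.277 CPM (9 to 68 counts) and the THI + CTD livers 0.819, 0.825, 0.83 and 0.278 CPM. These 7 livers lay above all controls, but the CTD mean rested on 1 liver. The log2 fold change was 2.56 ± 0.56 (5.9-fold, adjusted p = 0.00206) with CTD and 2.34 ± 0.53 (5.05-fold, adjusted p = 0.00712) with THI + CTD. Without CTD replicate 1 the CTD value was 1.24 with an adjusted p of 0.289. The IMZ + CTD livers (0.277, 0.284, 0.676 and 0.771 CPM) were also above all controls, with a log2 fold change of 1.87 ± 0.55 (adjusted p = 0.0823). This value passed with the DESeq2 Wald test (adjusted p = 0.029) and on counts thinned to the smallest library (0.0423), and in no other setting. THI + IMZ gave 0.141 to 0.549 CPM (1.42 ± 0.55, adjusted p = 0.291) and IMZ 0.0736 to 0.259 CPM. In THI replicate 3, E2f8 had 0 counts, where the 3 counts that a count of 0 allows correspond to 0.0827 CPM (counting error only).

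**Figure D2:**
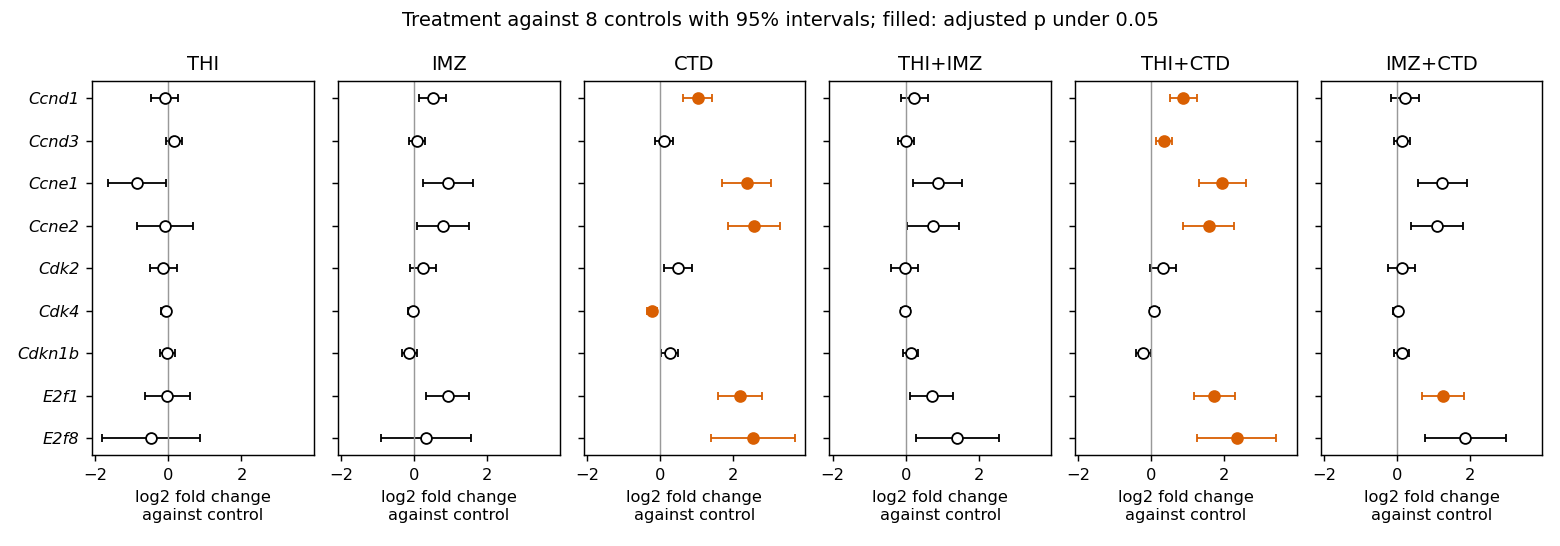
Log2 fold change of each gene against the 8 controls (horizontal axis) with its 95% interval for the 6 treatments (panels); filled orange points have an adjusted p under 0.05. The filled points are the 5 cyclin and E2F genes on the right and Cdk4 on the left in CTD, 6 genes in THI + CTD and E2f1 in IMZ + CTD.

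Ordered by mean level, CTD came first and THI + CTD second for Ccnd1, Ccne1, Ccne2, Cdk2, E2f1 and E2f8, and THI came last for the same 6 genes. For Ccne1, Ccne2, E2f1 and E2f8, IMZ + CTD came next. For each of the 9 genes, every pair of neighbouring groups in the order had overlapping ranges of CPM. Cdk4 had the reverse place for CTD (last), and Cdkn1b had CTD first and THI + CTD last.

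The single compounds were also compared directly, at doses that differ (CTD at 288, THI at 108 and IMZ at 93 mg/kg bw/day). Against THI, the other neonicotinoid, CTD was higher for 5 of the 9 genes, beside 6.62% of all genes called (3.42% higher). The log2 differences were 3.23 ± 0.44 for Ccne1, 2.68 ± 0.44 for Ccne2, 2.23 ± 0.36 for E2f1, 3.03 ± 0.73 for E2f8 and 1.14 ± 0.23 for Ccnd1, with adjusted p-values from 2.53e-05 to 0.0087. E2f8 did not pass without CTD replicate 1 (1.71, adjusted p = 0.261) or with only these groups fitted (3.03 ± 0.87, adjusted p = 0.101). For Ccnd3 the difference was -0.02 with a 95% interval of -0.30 to 0.26, and for Cdk4 -0.15 with an interval of -0.31 to 0.00. Against IMZ, CTD was higher for Ccne1 (1.45 ± 0.40), Ccne2 (1.81 ± 0.42) and E2f1 (1.29 ± 0.35), 3 of 9 beside 4.67% (2.28% higher), and none of the 9 passed without CTD replicate 1 or with only these groups fitted. Ccne2 alone passed without IMZ replicate 2 or 4. Without IMZ replicate 1, Ccne1 (adjusted p = 0.0893) and E2f1 (0.0692) did not pass and Ccnd1 did (0.0156). Without CTD replicate 2, Ccne1 did not pass (0.0836), while Cdkn1b (0.0239) and E2f8 (0.0411) did. Between THI and IMZ none of the 9 passed (0.01% of all genes did), though 4 had an unadjusted p under 0.05. The largest of these differences was for Ccne1, -1.78 ± 0.42 in THI minus IMZ (adjusted p = 0.408 in edgeR and 0.0392 in the DESeq2 Wald test). The Wald test called 1 of the 9, beside 12 of all genes.

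The mixtures ask whether their change differs from the sum of the log2 fold changes of the single compounds, weighted by dose (0.5 for THI and IMZ and 0.47 for CTD). None of the 9 genes departed from this sum at an adjusted p under 0.05 in edgeR in any mixture, where 0.0151% (THI + IMZ), 0.286% (THI + CTD) and 1.16% (IMZ + CTD) of all genes did. Before adjustment, 3, 7 and 2 of the 9 had a p under 0.05. In THI + CTD the difference from the sum was positive for 8 of the 9 genes, and for Ccne1 it was 1.25 ± 0.33 (adjusted p = 0.102). Cdkn1b had a negative one (-0.33 ± 0.10, adjusted p = 0.237). The DESeq2 Wald test called 2 of the 9 in THI + CTD, Ccne1 (adjusted p = 0.0306) and Cdk4 (0.22, adjusted p = 0.0316), beside 174 of all genes. In the other mixtures this test called 0 of the 9. In IMZ + CTD the difference from the sum was negative for 5 of the 9. These were Ccnd1 (-0.52 ± 0.19, adjusted p = 0.187), Ccne1 (-0.34 ± 0.34), Ccne2 (-0.50 ± 0.36), Cdk2 (-0.23 ± 0.18) and E2f1 (-0.24 ± 0.29). The difference was positive for the other 4, from 0.04 (Ccnd3) to 0.51 ± 0.55 (E2f8). In THI + IMZ it was positive for 7 of the 9, where E2f8 lay 1.49 ± 0.57 (adjusted p = 0.617) and Ccne1 0.84 ± 0.34 (adjusted p = 0.667) above the sum. THI + CTD and IMZ + CTD held nearly the same dose of CTD (134 and 135 mg/kg bw/day), and this comparison was added after the values had been seen. None of the 9 passed (0.176% of all genes did), with 2 at an unadjusted p under 0.05. The difference, THI + CTD minus IMZ + CTD, was 0.66 for Ccnd1 (95% interval 0.23 to 1.10), 0.70 for Ccne1 (-0.06 to 1.47), 0.47 for E2f1 (-0.20 to 1.14) and -0.35 for Cdkn1b (-0.59 to -0.10).

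**Figure D3:**
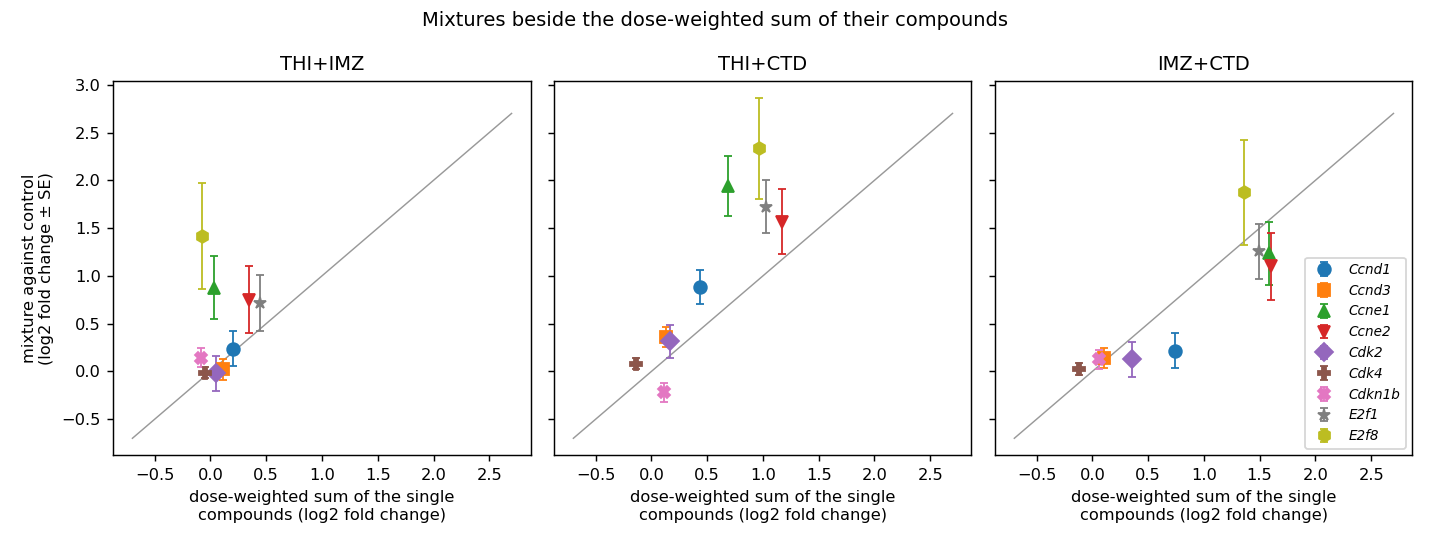
Log2 fold change of each mixture against control ± SE (vertical axis) beside the dose-weighted sum of its compounds (horizontal axis) for the 9 genes; the line marks equality. In THI + CTD 8 of the 9 points lie above the line and Cdkn1b below it, in IMZ + CTD Ccnd1 lies below it, and no point departed from it at an adjusted p under 0.05 in edgeR.

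Other genes of the same pathway were read from lists of 47 genes, of which 43 were tested (Cdkn2d, Dyrk1a and Tfdp1 were not analysed here, and Cks1b has 2 rows and was left out). With CTD 21 of the 43 rose and 0 fell, beside 6.62% of all genes higher and 6.03% lower. With THI + CTD 13 rose and 2 fell (2.67% of all genes higher, 4.39% called), and with IMZ + CTD 8 rose (1% higher, 1.46% called). With THI + IMZ 3 rose (1.18% of all genes called), with THI 1 fell (0.543%) and with IMZ none passed (0.251%). The share of all genes called falls in the same order as these counts. The same shares stand beside the counts by list below. Without CTD replicate 1 the CTD count was 11, and the CTD values of single list genes below include this rat. The THI + CTD count was 8 without THI + CTD replicate 3, the IMZ + CTD count 4 or 5 without IMZ + CTD replicate 3 or 4, and the THI + IMZ count 5 or 1 without THI + IMZ replicate 1 or 4. For IMZ the DESeq2 Wald test called 2, beside 150 of all genes.

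Among classical E2F target genes, which serve DNA synthesis, 9 of 12 rose with CTD, with a median log2 fold change of 1.32 beside -0.07 over all genes. These were the ribonucleotide reductase subunits Rrm2 (3.53 ± 0.55) and Rrm1 (0.67 ± 0.16), the replication licensing genes Mcm5 (2.52 ± 0.42), Mcm3 (2.01 ± 0.30) and Cdc6 (1.71 ± 0.37), the methylation maintenance factor Uhrf1 (2.63 ± 0.41), the sliding clamp Pcna (0.92 ± 0.13), the transcription factor Mybl2 (1.79 ± 0.41) and Tyms (0.76 ± 0.23). Cdt1 (0.87) and Tk1 (0.81) were among those that did not pass. With THI + CTD 7 of 12 rose, among them Rrm2 (2.67 ± 0.52), Uhrf1 (2.27 ± 0.39), Mcm5 (1.99 ± 0.40) and Cdt1 (1.25 ± 0.34), with a median of 0.96. With IMZ + CTD 4 of 12 rose: Rrm2 (2.54 ± 0.53), Uhrf1 (1.96 ± 0.39), Mcm5 (1.63 ± 0.41) and Mcm3 (1.24 ± 0.28). With THI + IMZ Rrm2 alone rose (2.47 ± 0.53), and with THI and IMZ none did, with medians of -0.19 and 0.45.

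Among the other kinases, cyclins and activators, 3 of 7 rose with CTD. Cdk1, the mitotic kinase, rose by 3.44 ± 0.41, Ccna2 (cyclin A2, of S phase and G2) by 3.10 ± 0.48 and Cdc25a, a phosphatase that activates these kinases, by 0.70 ± 0.18. Cdk1 and Ccna2 passed in every mixture, at 2.46 ± 0.40 and 2.03 ± 0.46 with THI + IMZ, 2.38 ± 0.40 and 1.98 ± 0.46 with THI + CTD and 2.86 ± 0.40 and 2.39 ± 0.46 with IMZ + CTD. Cdc25a also rose with THI + CTD (0.61 ± 0.17). Cdk6, Cdk7, Ccnh and Mnat1 did not pass in any treatment. With THI + IMZ, Cdk1 and Ccna2 were called where none of the 9 was, a difference that was not tested.

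Of 7 other E2F and DP factors, 2 rose with CTD: E2f7, the other atypical E2F (2.56 ± 0.52), and E2f3, an activator (0.47 ± 0.10). With THI + CTD E2f7 rose (1.92 ± 0.49), and E2f2, E2f4, E2f5, E2f6 and Tfdp2 passed nowhere. Of 8 pocket protein and MuvB genes, 4 rose with CTD: Lin9 (1.02 ± 0.33), the pocket proteins Rbl1 (0.96 ± 0.21) and Rb1 (0.63 ± 0.15), and Rbbp4 (0.27 ± 0.07). Lin9 rose with THI + CTD (1.18 ± 0.29) and Lin54 with IMZ + CTD (0.37 ± 0.09). In the turnover of cyclin E and p27, Skp2, the ubiquitin ligase subunit that targets p27, rose with CTD (1.17 ± 0.28), as did Cul1 (0.29 ± 0.08), 2 of 4.

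The inhibitors other than p27 did not move in 1 direction. Cdkn2c, which encodes the CDK4 inhibitor p18, rose with CTD (1.97 ± 0.28), IMZ + CTD (1.50 ± 0.27) and THI + CTD (1.36 ± 0.27). Cdkn1a, which encodes p21, fell by 1.49 on the log2 scale with THI (SE 0.25, adjusted p = 0.00103) and by 0.87 with THI + CTD (SE 0.24), and was -0.18 ± 0.25 with CTD. Cdkn1c, which encodes p57, fell by 0.90 with THI + CTD (SE 0.26). Cdkn2a and Cdkn2b passed in no treatment.

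**Figure D4:**
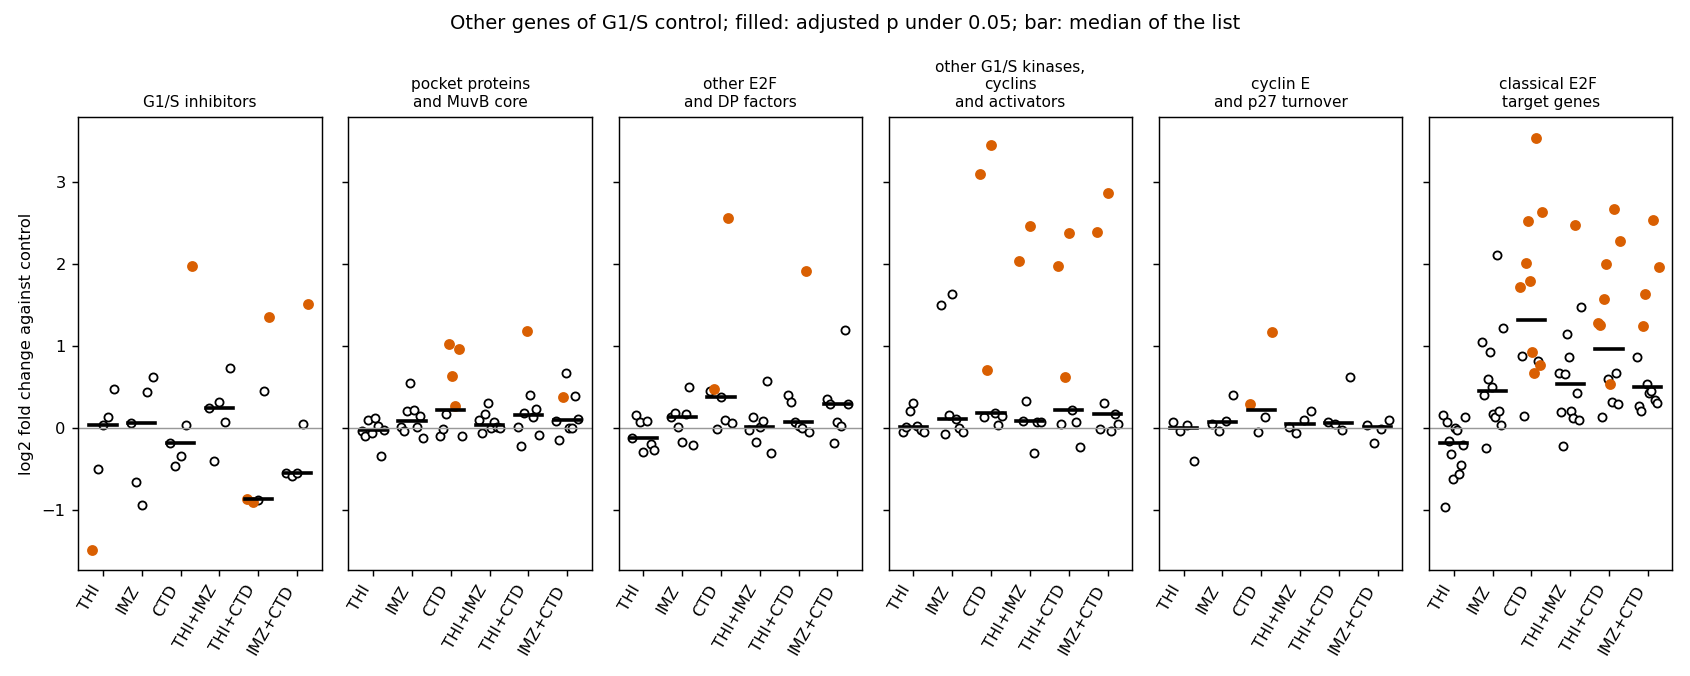
Log2 fold change against control (vertical axis) of the 43 other G1/S genes tested, by list (panels) and treatment (horizontal axis); each point is 1 gene, filled orange where the adjusted p is under 0.05, and the bar is the median of the list. E2F target genes hold the most filled points (9 of 12 with CTD, 7 with THI + CTD, 4 with IMZ + CTD), and the filled points below 0 are Cdkn1a with THI and Cdkn1a and Cdkn1c with THI + CTD.

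Markers of other cell types that divide or enter the liver were read beside these results. The summed level of 4 erythroid genes (Hbb, Alas2, Ahsp and Tfrc) was 40.6 to 79 CPM in the controls and 117 to 149 CPM with CTD, where Hbb (2.83 ± 0.48) and Alas2 (2.34 ± 0.63) rose. Tfrc alone was 31.1 to 65.2 CPM in the controls, 53.2 to 77.8 CPM with CTD and 34.9 to 40.7 CPM with IMZ + CTD. With THI + CTD the sum was 52.3 to 132 CPM and Hbb rose (1.60 ± 0.45). With IMZ + CTD the sum was 40.2 to 56.4 CPM, with IMZ 66.8 to 101 CPM, with THI 43.2 to 68 CPM and with THI + IMZ 44.3 to 65.9 CPM. None of the 4 passed in these groups. The part of erythroid RNA in the CTD and THI + CTD results was not tested. Ahsp was at 0 in 1 CTD liver and at most 0.431 CPM in the others. The 5 T and NK cell genes summed to 0.698 to 1.95 CPM with CTD and 0.447 to 1.73 CPM in the controls, and 3 B cell genes to at most 0.588 CPM in any liver. None of these, and none of 4 cholangiocyte genes, passed in the 6 treatments. Of 5 Kupffer cell and macrophage genes (205 to 292 CPM with CTD, 248 to 404 CPM in the controls) Cd68 fell with CTD (by 0.67, SE 0.16) and Cd163 with THI + CTD (by 0.50, SE 0.14). Of 6 stellate cell and fibroblast genes (360 to 495 CPM with CTD, 228 to 392 CPM in the controls) Col3a1 rose with CTD (0.54 ± 0.13) and Col1a1 with THI + CTD (0.91 ± 0.24). Of 5 sinusoidal endothelial genes Kdr fell with both (by 0.58, SE 0.10, and by 0.34, SE 0.09). The part of these cells in the results was not tested either.

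Among the 9 genes, the levels of some went together over the 31 livers. These correlations of log2 CPM are descriptions, since the livers share treatments, and r within groups (after subtracting each group mean) is given beside each. Pearson's r was 0.891 (0.688 within groups) for Ccne1 and E2f1, 0.868 (0.741) for Ccne1 and E2f8, 0.817 (0.440) for Ccne1 and Ccne2 and 0.825 (0.451) for Ccne2 and E2f1. Cdk2 went with Ccnd3 (0.695, and 0.793 within groups) and Ccnd1 (0.711 and 0.612). Cdk4 and Cdkn1b ran opposite to each other (-0.560 and -0.522).

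Of 10761 other genes searched, genes among the 2 most like each member over the 31 livers were Mms22l (r = 0.935) and Zfp367 (0.909) for E2f1, Zfp367 (0.905) and Fen1 (0.894) for Ccne1, Pcna (0.894) and Mcm6 (0.877) for Ccne2 and Arhgap11a (0.895) and Hist1h2bcl1 (0.879) for E2f8. Fen1, Pcna and Mcm6 encode proteins of DNA replication. The closest genes to Ccnd1 were Arhgef5 (0.796) and Pde5a (0.784), to Ccnd3 Pgp (0.831) and Fam20c (0.819), and to Cdk2 Gatad2a (0.815) and Rassf8 (0.812). For Cdk4, Ndufa9 (0.733) is given, and the closest to Cdkn1b were Ube2b (0.832) and Rlf (0.733). Within groups the values given lay between 0.496 (Cdk4 and Ndufa9) and 0.834 (Cdk2 and Gatad2a).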

How the data were processed

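Total RNA of 31 rat livers, each an independent animal, was sequenced with a stranded total RNA kit. The authors trimmed reads with Skewer, mapped them to Rnor_5.0 with STAR 2.5.2b and deposited counts per gene, whole numbers without normalization (per the labels, with FastQC 0.11.5 and DESeq2 1.15.1 among the tools). The annotation release and strand setting are not given in the sources used here, so reads of overlapping or antisense genes may be shared. The second deposited table holds a normalized signal. Each value equalled count over DESeq2 size factor (largest relative deviation 5.3e-15), and it was not used for tests. The fit used edgeR 4.0.16 in R 4.3.3 (TMM, genes summing to 2 counts or more, 1 model with a mean for each of 7 groups, quasi-likelihood test, Benjamini-Hochberg over 19904 genes, threshold 0.05). Log2 CPM used a prior count of 2. The common biological coefficient of variation was 19.4%. SE is the log2 fold change over the root of F. No pair of libraries of 1 group agreed within sampling noise (lowest chi-square per gene 28.9). Libraries held 31.8 M to 101 M counts, which leaves few counts for E2f8.

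The genes, lists and tests were chosen with earlier results of these data known. Named were all members, the list genes past the threshold in a comparison (for lists of many, examples), and for each member the 2 genes with the highest correlation. Cell type markers were fixed lists. Alternatives were DESeq2 1.42.0 size factors and Wald test, filterByExpr, no filter, only the groups compared, a replicate block, exact dose ratios, counts thinned to the smallest library and each rat left out. The code was tested on simulated data. Promoters came from a RefSeq table (GRCr8). Single genes of a list or of the most correlated genes that are not named are not reported here.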

Additional observations from a re-analysis of the deposited data

Results flagged for a closer look

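In 6 of 54 sets of livers (a gene in a group of at least 4 rats, on log2 CPM) 1 rat lay far from the others by Dixon's ratio of gap to range, which chance alone does in about 5% of sets. Ccnd1 in IMZ replicate 1 was highest, at 46.5 CPM (ratio 0.927). Ccne2 was highest in IMZ replicate 3, at 1.82 CPM (0.906), and in IMZ + CTD replicate 4, at 1.7 CPM (0.974). IMZ + CTD replicate 4 was also highest for Cdkn1b, at 15 CPM (0.912). E2f1 was highest in THI replicate 3, at 1.27 CPM (0.879), the liver in which E2f8 had 0 counts. E2f8 was lowest in THI + CTD replicate 4, at 0.278 CPM (0.987), still above all controls. The CTD group, with 3 rats, is too small for this rule.

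The effects of the single compounds against the shared controls differed in direct tests of 1 against the other (edgeR, adjusted p under 0.05). CTD exceeded THI by a log2 fold change of 1.14 for Ccnd1, 3.23 for Ccne1, 2.68 for Ccne2, 2.23 for E2f1 and 3.03 for E2f8. It exceeded IMZ by 1.45 for Ccne1, 1.81 for Ccne2 and 1.29 for E2f1. In both comparisons the values without CTD replicate 1 were smaller, from 0.95 (Ccnd1) to 2.83 (Ccne1) against THI and from 0.70 (E2f1) to 1.24 (Ccne2) against IMZ. Without this rat E2f8 no longer passed against THI (adjusted p = 0.261). Against IMZ, Ccne1 (adjusted p = 0.22), Ccne2 (0.145) and E2f1 (0.348) no longer passed either. The part of the dose in these differences cannot be told apart from that of the compound.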

How the results depend on the processing

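For THI + CTD against control the count of members called, 6, was 3 with the replicate block (Ccnd1, Ccne1 and E2f1). Of all genes, 873 were called in the main fit and 348 with the block. For IMZ + CTD the count of 1 was 2 with DESeq2 size factors, 3 with the Wald test, 2 with filterByExpr, 0 with the replicate block, 3 on thinned counts and 3 with only the groups compared. In the same order all genes called numbered 294, 567, 366, 80, 292 and 379, beside 290 in the main fit. For CTD against IMZ the count of 3 was 5 with the Wald test and with filterByExpr and 0 with only the groups compared. There all genes called numbered 1461, 1189 and 240, beside 930 in the main fit. The Wald test called 1 between THI and IMZ and 2 for THI + CTD against the dose-weighted sum, where edgeR called 0. Of all genes, the Wald test called 12 and 174 in these comparisons, and edgeR called 2 and 57. Leaving out 1 rat at a time gave 4 to 7 members for CTD, 5 to 6 for THI + CTD, 0 to 2 for IMZ + CTD, 4 to 6 for CTD against THI and 0 to 4 for CTD against IMZ, and 0 in the other comparisons. CTD replicate 1 gave the lowest count in each of the CTD comparisons, and IMZ + CTD replicate 3 or 4 gave the 0. The other pathway genes called, counted after the data had been seen, numbered 0 (THI + IMZ), 7 (THI + CTD) and 2 (IMZ + CTD) under the replicate block, and for IMZ 2 with only the groups compared. All genes called in these fits numbered 53, 348 and 80, and 93 for IMZ.

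The labels number the rats, but same-numbered rats of different groups did not deviate together (correlations from -0.272 to 0.419, median 0.023), so the replicate block does not stand for a pairing. The signs that turned belonged to genes that passed nowhere in that comparison. With the block, Ccnd3 became -0.02 for IMZ, -0.02 for CTD and -0.09 for THI + IMZ, and Cdk4 -0.01 for IMZ + CTD. On thinned counts E2f1 became 0.02 for THI. Without 1 rat, log2 fold changes for THI ran from -0.23 to 0.02 (Ccnd1), -0.38 to 0.20 (Ccne2), -0.12 to 0.03 (Cdkn1b) and -0.21 to 0.04 (E2f1). For IMZ, Cdk4 ran from -0.07 to 0.00, and for CTD Ccnd3 from -0.06 to 0.30. For THI + IMZ, Ccnd3 ran from -0.05 to 0.07, Cdk2 from -0.31 to 0.11 and Cdk4 from -0.04 to 0.03. Between compounds, Ccnd3 ran from -0.20 to 0.16 (CTD minus THI), -0.14 to 0.21 (CTD minus IMZ) and 0.00 to 0.12 (THI minus IMZ), and Cdk4 from -0.08 to 0.00 (THI minus IMZ). Against the dose-weighted sum, Ccnd1 ran from -0.03 to 0.21 and Cdk2 from -0.36 to 0.06 in THI + IMZ, and Ccnd3 from -0.05 to 0.12 and E2f1 from -0.48 to 0.04 in IMZ + CTD. The cause of these changes was not tested. Low counts limit E2f8, and 3 rats limit every CTD value.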
